A study of Homo sapiens with 12 samples.

Results

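The 10 genes KRT7, KRT8, KRT10, KRT14, KRT17, KRT18, KRT19, KRT80, KRT81 and KRT86 code for keratins, and their transcript levels were compared between temozolomide-resistant glioblastoma lines and the parental lines they came from. They were taken by symbol from a gene expression table and are 10 of its 46 keratin genes and of its 31681 rows. The genes were listed with results from these same libraries known. Their levels and differences are therefore given as a description, with standard errors and without p-values, and nothing is supported by them.

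Libraries were made from 4 human glioblastoma cultures, with 3 libraries each. U251MG and U87MG are long-established glioblastoma cell lines. U251TR and U87TR are sublines that the submitters selected from them in culture by exposing the cells again and again to rising doses of temozolomide (TMZ), an alkylating drug used against glioblastoma. All 4 were grown in DMEM with 10% fetal bovine serum, and the labels do not say whether the drug was present at harvest. Each parent had only 1 resistant subline, so resistance cannot be told apart from any other change that arose while that subline was derived. Whether the 3 libraries of each line came from separate cultures is not stated in the labels, so SDs and p-values reflect no more than the spread between libraries, which may be technical. All 3 U87TR libraries carry codes from another number block than the other 9, and in U87 this block cannot be told apart from resistance.

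Levels are in FPKM, which scales the fragments of a gene to its length and to the size of the library, so that levels of different genes can be set side by side. The libraries had 13135 to 14122 genes at 1 FPKM or more. The table holds no read counts, so the depth behind each value is unknown and no counting interval is given. Of the U251MG libraries, replicate 2 was the least like its fellows: its Spearman correlations across genes were 0.977 and 0.978, while the remaining pair reached 0.993. In U87MG replicate 3 was the least alike, with 0.983 and 0.987, where the remaining pair had 0.993. The RNA came from whole cultures, where fewer cells of a type and less RNA per cell cannot be told apart. All 10 genes of a list of glioma and astroglial markers were at 1 FPKM or more in every U251MG and U251TR library. In U87MG and U87TR 6 of the 10 were, and SOX2 and S100B, which code for a neural stem cell factor and an astroglial calcium-binding protein, were listed at 0 in all U87MG libraries.

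Keratins are the intermediate filament proteins of epithelia. A filament is built from pairs of 1 acidic type I and 1 basic or neutral type II keratin, and a keratin without a partner is usually degraded. KRT8 and KRT18 are the pair of simple epithelia, while the filaments of astroglial cells are built mainly from vimentin and GFAP. Type II genes lie together on human chromosome 12 and type I genes on chromosome 17, with the exception that type I KRT18 lies at the end of the type II cluster, next to KRT8. Of the 46 keratin genes listed, 23 lie on chromosome 12, among them KRT80, KRT7, KRT86, KRT81, KRT8 and KRT18 in this order, and 23 on chromosome 17, among them KRT10, KRT19, KRT14 and KRT17 in this order (RefSeq, assembly GRCh38.p14).

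Sequence likeness limits how well reads can be assigned to KRT81 and KRT86, which both code for type II keratins of the hair shaft. Their coding sequences were identical at 1361 of 1454 aligned bases (93.6%) in the MANE Select transcripts of GENCODE v44, and shared an identical run of 605 bases. Of the 150-base windows of the KRT81 transcript 25.6% also occurred in KRT86, and of those of KRT86 21.7% occurred in KRT81, where 150 bases is the read length. In KRT14 0.605% of windows occurred in KRT16, and the other 7 members shared none with another gene. In this annotation KRT81 also lies within the span of KRT86, on the opposite strand and without overlap of exons, and the sources used here do not say whether reads were counted by strand. The pair can be told apart in coding bases 1249 to 1308 of each transcript, written here 5′ to 3′ with the 14 differing bases of 60 in capitals.
KRT81: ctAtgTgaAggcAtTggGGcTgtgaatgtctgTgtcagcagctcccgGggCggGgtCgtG
KRT86: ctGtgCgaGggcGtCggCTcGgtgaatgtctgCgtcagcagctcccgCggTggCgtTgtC
Levels of KRT81 and KRT86 are uncertain for this reason.

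The 6 members on chromosome 12 differed from their parent in opposite directions in the 2 resistant sublines. In U251TR the 6 members on chromosome 12 were all lower than in U251MG, with no overlap between libraries, and KRT14, KRT17 and KRT19 were higher without overlap. In U87TR the same 6 genes on chromosome 12 were all higher than in U87MG, again without overlap, as were KRT14 and KRT17. KRT10 overlapped in both comparisons and KRT19 in U87. Libraries did not overlap for 9 of 10 members in U251 and 8 of 10 in U87, while 58.9% and 46.6% of all tested genes did not. All comparisons that follow share libraries: each parent enters its own resistance comparison and the comparison of parents.

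**Figure D1:**
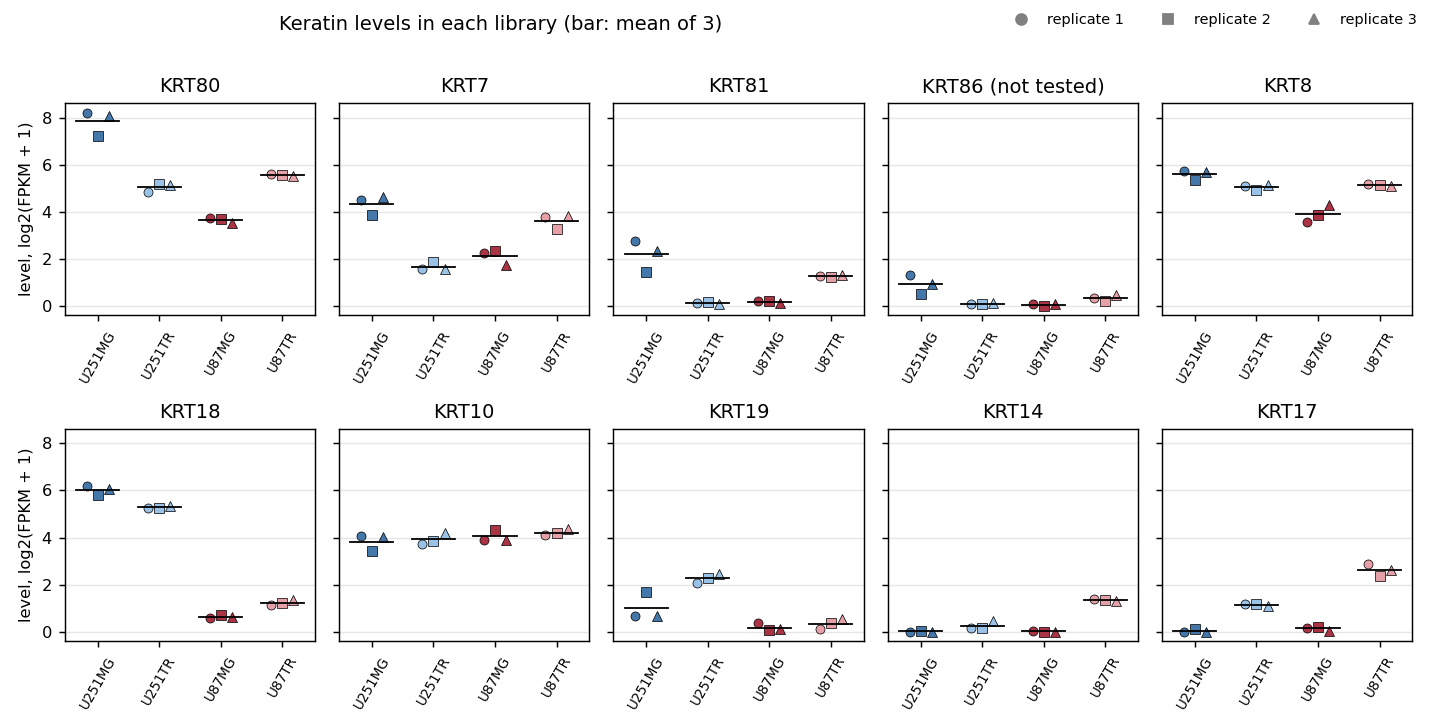
Level of each member in each of the 12 libraries, as log2(FPKM + 1), with a bar at the mean of 3 libraries; circles, squares and triangles are replicates 1, 2 and 3. KRT80, KRT7, KRT81, KRT86, KRT8 and KRT18 are higher in U251MG than in U251TR and lower in U87MG than in U87TR, while KRT10 overlaps in all 4 lines.

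KRT80 had the highest level of all members in U251MG and the widest gap between the differences of U87TR and U251TR, 4.71 (SE 0.29) on the log2 scale. It codes for a type II keratin of many epithelia that lies near desmosomes at the cell margin. Its levels were 297, 148 and 269.7 FPKM in U251MG replicates 1, 2 and 3 and 28.0, 35.6 and 33.9 FPKM in U251TR. In U87MG they were 12.1, 11.8 and 10.3 FPKM, and in U87TR 47.2, 46.3 and 45.0 FPKM. All 3 U251MG libraries stood above every other library, replicate 2 lowest among them, and all 3 U87MG libraries stood below every other library. Group means were 238.1 ± 79.5 FPKM in U251MG, 46.2 ± 1.14 in U87TR, 32.5 ± 4.01 in U251TR and 11.4 ± 0.959 in U87MG (SD, n = 3), and no neighbours in this order overlapped. The log2 difference was -2.78 (SE 0.20) in U251TR, or -3.09 without U251MG replicate 2, and 1.93 (SE 0.20) in U87TR. Here and below log2 differences are on the log2(FPKM + 1) scale, which understates the change of weakly expressed genes.

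KRT7, a type II keratin of glandular and ductal epithelia, was also highest in U251MG and next in U87TR, at lower levels than KRT80. It stood at 21.3, 13.5 and 23.8 FPKM in U251MG and at 1.99, 2.64 and 1.92 FPKM in U251TR. In U87MG it had 3.76, 3.97 and 2.32 FPKM, against 12.7, 8.6 and 13.3 FPKM in U87TR. U87MG and U251TR overlapped at the bottom, and the other neighbours in the order did not overlap. The log2 difference was -2.66 (SE 0.23) in U251TR and 1.53 (SE 0.23) in U87TR, the latter 1.34 without U87MG replicate 3.

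The hair keratins KRT81 and KRT86 were weakly expressed and moved with KRT80 and KRT7. KRT81 had 5.82, 1.71 and 4.08 FPKM in U251MG and 0.07, 0.12 and 0.05 FPKM in U251TR. It had 0.15, 0.14 and 0.08 FPKM in U87MG and 1.41, 1.32 and 1.5 FPKM in U87TR. Only U251MG and U87TR reached 1 FPKM, and the low values of the other 2 lines overlapped. The log2 difference of KRT81 was -2.07 (SE 0.24) in U251TR, or -2.45 without U251MG replicate 2, and 1.10 (SE 0.24) in U87TR. KRT86 had 1.48, 0.43 and 0.92 FPKM in U251MG, at most 0.1 FPKM in any U251TR or U87MG library, and 0.27, 0.16 and 0.36 FPKM in U87TR. It reached 1 FPKM in too few libraries to be tested. The ratio of KRT81 to KRT86 was 4.12 ± 0.278 in U251MG and 5.88 ± 2.12 in U87TR (SD, n = 3), the 2 lines where both were above the lowest values.

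KRT8, the type II partner of simple epithelia, stood at like levels in both resistant sublines. It had 52.5, 40.2 and 50.9 FPKM in U251MG and 33.6, 29.3 and 33.8 FPKM in U251TR. In U87MG it stood at 10.7, 13.4 and 18.4 FPKM, and in U87TR at 35.4, 33.9 and 33.1 FPKM. The parents were thus the highest and the lowest line, and the sublines overlapped between them. Means were 47.9 ± 6.70 FPKM in U251MG, 34.1 ± 1.15 in U87TR, 32.3 ± 2.57 in U251TR and 14.2 ± 3.89 in U87MG (SD, n = 3). The log2 difference was -0.55 (SE 0.16) in U251TR and 1.24 (SE 0.16) in U87TR. Of the parental libraries that stood apart, U251MG replicate 2 was the lowest of its line for KRT8 and U87MG replicate 3 the highest of its line. Without them the log2 differences were -0.67 and 1.43.

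KRT18, the type I partner of KRT8, separated the 2 parents more than any other member. Its levels were 71.2, 54.3 and 65.9 FPKM in U251MG and 36.7, 37.5 and 39.5 FPKM in U251TR. In U87MG they were 0.48, 0.62 and 0.54 FPKM, and in U87TR 1.19, 1.29 and 1.51 FPKM. The 4 lines did not overlap, and U251TR stood 28.5 times above U87TR in the ratio of means. The log2 difference was -0.73 (SE 0.11) in U251TR, 0.59 (SE 0.11) in U87TR and -5.38 (SE 0.11) in U87MG against U251MG. With a pseudocount of 5 FPKM the U87TR difference was 0.19 and no longer past the threshold of the fit.

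The balance of the pair differed far more between the U251 and U87 lines than between a subline and its parent. The ratio of KRT8 to KRT18 levels was 0.737, 0.741 and 0.773 in the U251MG libraries and 0.917, 0.781 and 0.857 in U251TR. It was 22.4, 21.6 and 34.0 in the U87MG libraries and 29.7, 26.3 and 21.9 in U87TR. Means were 0.750 ± 0.0195 and 0.852 ± 0.0681 in the U251 lines and 26.0 ± 6.99 and 26.0 ± 3.90 in the U87 lines (SD, n = 3), so that U87MG and U87TR overlapped while U251TR lay just above U251MG. Both genes have many pseudogene copies, listed as 27 rows for KRT8 and 31 for KRT18. The KRT18 copies summed to 1.82 ± 0.332 FPKM in U87MG and 1.61 ± 0.479 in U87TR (SD, n = 3), while KRT18 itself had 0.547 and 1.33 FPKM, below its copies in U87MG and within their spread in U87TR. The KRT8 copies summed to 10.6 ± 0.938 and 11.5 ± 0.197 FPKM in these lines, most of it in KRT8P12. With the copies added to both genes the mean ratio was 0.852 and 0.988 in U251MG and U251TR and 10.8 and 15.6 in U87MG and U87TR, and the KRT18 difference in U87TR was 0.23 and not past the threshold. How reads were divided between genes and copies was not tested.

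**Figure D2:**
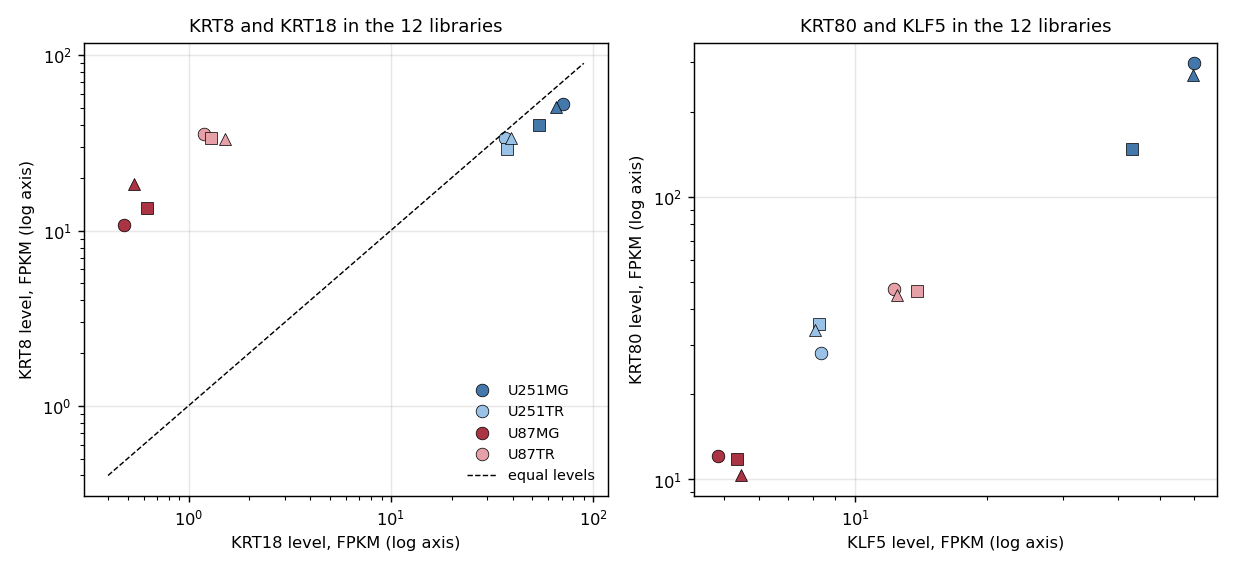
Left, KRT8 against KRT18 level and right, KRT80 against KLF5 level, in FPKM on log axes, 1 point per library (circle, square and triangle for replicates 1, 2 and 3). The 6 U251 libraries lie near the dashed line of equal KRT8 and KRT18 levels, just below it, and the 6 U87 libraries far above it; KRT80 and KLF5 are highest in U251MG and lowest in U87MG.

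KRT10, a type I keratin of the upper layers of the epidermis, differed least. It had 15.7, 9.7 and 15.1 FPKM in U251MG, 12.1, 13.3 and 17.5 FPKM in U251TR, 14.1, 18.9 and 13.96 FPKM in U87MG and 16.0, 17.4 and 19.3 FPKM in U87TR. All neighbours in the order of levels overlapped. Its log2 difference in U251TR was 0.09, smaller than its SE of 0.18, and turned to -0.11 without U251MG replicate 2 and to -0.03 with median-of-ratios scaling. That in U87TR was 0.17, also below its SE of 0.18. Its epidermal partner KRT1 was at 0 in all libraries but 2 of U87TR, each at 0.02 FPKM.

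KRT19, a type I keratin of simple epithelia that lacks the usual tail domain, was the only member higher in U251TR and overlapping in U87. It had 0.59, 2.19 and 0.56 FPKM in U251MG, where replicate 2 was the high one, and 3.24, 3.82 and 4.38 FPKM in U251TR. The U87MG and U87TR libraries were all at 0.45 FPKM or less. The log2 difference in U251TR was 1.27 (SE 0.24), and 1.60 without U251MG replicate 2. In U87TR it was 0.17 (SE 0.24).

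KRT14 and KRT17 were at or near 0 in both parents. KRT14 is the type I keratin of basal epidermal cells, and KRT17 a type I keratin of skin appendages that is induced in injured epidermis. KRT17 had 0, 0.07 and 0 FPKM in U251MG and 1.27, 1.23 and 1.11 FPKM in U251TR. It had 0.12, 0.14 and 0.03 FPKM in U87MG and 6.39, 4.11 and 5.16 FPKM in U87TR. KRT17 was thus higher in both sublines without overlap, with log2 differences of 1.11 (SE 0.13) and 2.49 (SE 0.13). KRT14 had at most 0.02 FPKM in any parental library, 0.1, 0.11 and 0.36 FPKM in U251TR and 1.58, 1.55 and 1.43 FPKM in U87TR. Only its U87TR level reached 1 FPKM, and its log2 difference was 1.32 (SE 0.10) there and 0.23 (SE 0.10) in U251TR.

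Past the threshold of the limma fit, a Benjamini-Hochberg adjusted p of 0.05 over 15449 genes, were 7 of the 9 tested members in U251TR, 2 higher and 5 lower, where 53.2% of all tested genes passed (33.6% higher and 19.6% lower). In U87TR 7 of 9 passed, all higher, where 27.8% of all genes did (10.6% higher and 17.2% lower). The difference between the 2 resistance changes passed for 8 of 9, 7 in the direction of U87TR and KRT19 in the other, against 47.6% of all genes (15.4% and 32.1%). In U87MG against U251MG 6 of 9 passed, all lower in U87MG, against 72.3% of all genes (32.2% higher and 40.1% lower), and 7 of all 10 members were lower without overlap, where the libraries of 72.3% of genes did not overlap. The median log2 difference of all genes was 0.10 in U251TR and -0.05 in U87TR. KRT14, KRT17, KRT19 and KRT81 entered the test only through the lines where they were high, and the members were chosen with these differences known, so nothing is read from these counts.

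Summed over all 46 keratin genes, the level was 414.7 ± 93.0 FPKM in U251MG, 139.2 ± 8.77 in U251TR, 70.8 ± 7.32 in U87MG and 157.2 ± 4.49 in U87TR (SD, n = 3). The sums of the 2 parents thus lay outside those of the 2 sublines, whose libraries ran from 129.6 to 146.8 and from 152.1 to 160.4 FPKM. The 10 members made up 93.0% ± 5.00 of the sum in U251MG, 89.4% ± 1.59 in U251TR, 64.4% ± 3.65 in U87MG and 76.0% ± 0.711 in U87TR (SD, n = 3). KRT80 alone held 56.3% ± 7.45 in U251MG, 23.3% ± 1.84 in U251TR, 16.3% ± 2.91 in U87MG and 29.4% ± 1.23 in U87TR (SD, n = 3). In U251TR KRT18 had the largest share, 27.2% ± 0.919, with KRT80 at 23.3% and KRT8 at 23.2%. In U87MG KRT10 led among the members with 22.1% ± 3.56, ahead of KRT8 with 19.8% ± 3.82 (SD, n = 3), which is within their spread. KRT18 held 0.772% and 0.846% in U87MG and U87TR.

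**Figure D3:**
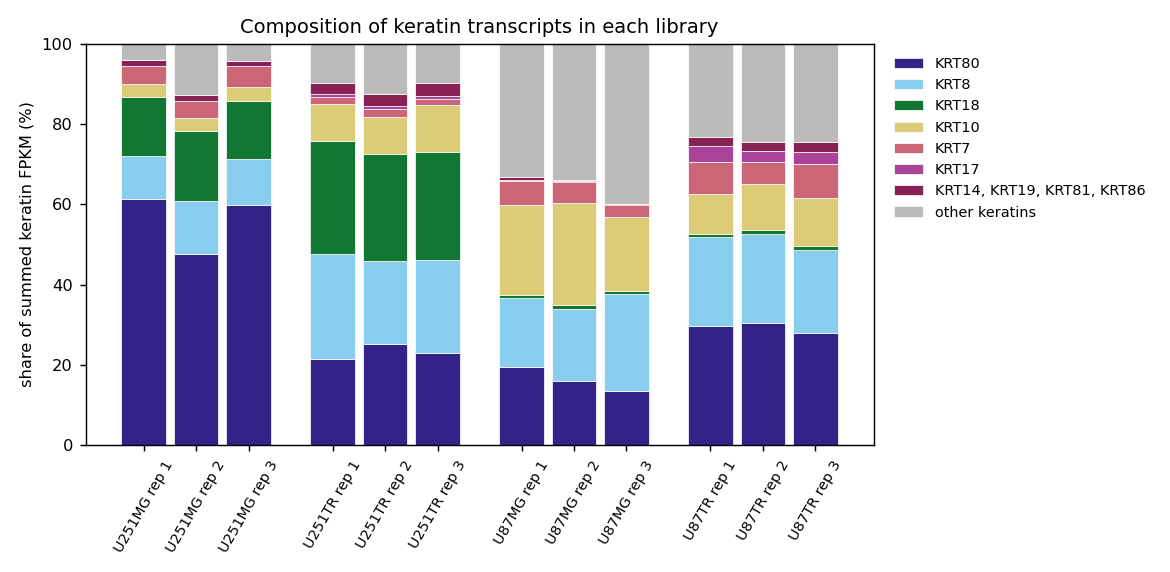
Shares in the summed FPKM of all 46 keratin genes, in percent, 1 bar per library. KRT80, KRT8, KRT18, KRT10, KRT7 and KRT17 have separate bands. KRT14, KRT19, KRT81 and KRT86 are joined in 1 band, and the keratins that are not members in another. KRT80 falls from more than any other share in U251MG to near those of KRT8 and KRT18 in U251TR, and grows from U87MG to U87TR; KRT18 is a thin band in all 6 U87 libraries.

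Along the 2 clusters, the values of the members are given here beside those of their neighbours. On chromosome 12 all 5 tested members were lower in U251TR and higher in U87TR, where 19.6% and 10.6% of all tested genes passed in these directions; the members were chosen with them known, and nothing is read from the count. Of the 4 other keratins tested there, KRT75 fell and KRT5 was lower in U251TR, and KRT78 passed in neither subline. KRT79 passed as lower in U87TR, but not in 16 of 21 other settings. KRT5, the type II keratin of basal epidermal cells, had a log2 difference of -1.37 (SE 0.17) in U251TR. KRT75, a keratin of the hair follicle, had -0.75 (SE 0.19, adjusted p = 0.00476). Of the 6 tested genes that flank the chromosome 12 cluster, 2 rose and 1 fell in U251TR and 1 rose and 1 fell in U87TR. Only RefSeq genes found under the same symbol in the expression data were placed in this order. Among them IGFBP6, the third beyond KRT18, rose in U251TR (log2 difference 1.93, SE 0.12, adjusted p = 8.17e-08), while KRT18 was lower there. On chromosome 17, of the 5 flanking genes tested, 2 rose in U251TR and 1 in U87TR, and none fell. Over all tested genes 33.6% were higher and 19.6% lower in U251TR, and 10.6% higher and 17.2% lower in U87TR. Nothing is read from the counts of flanking genes.

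**Figure D4:**
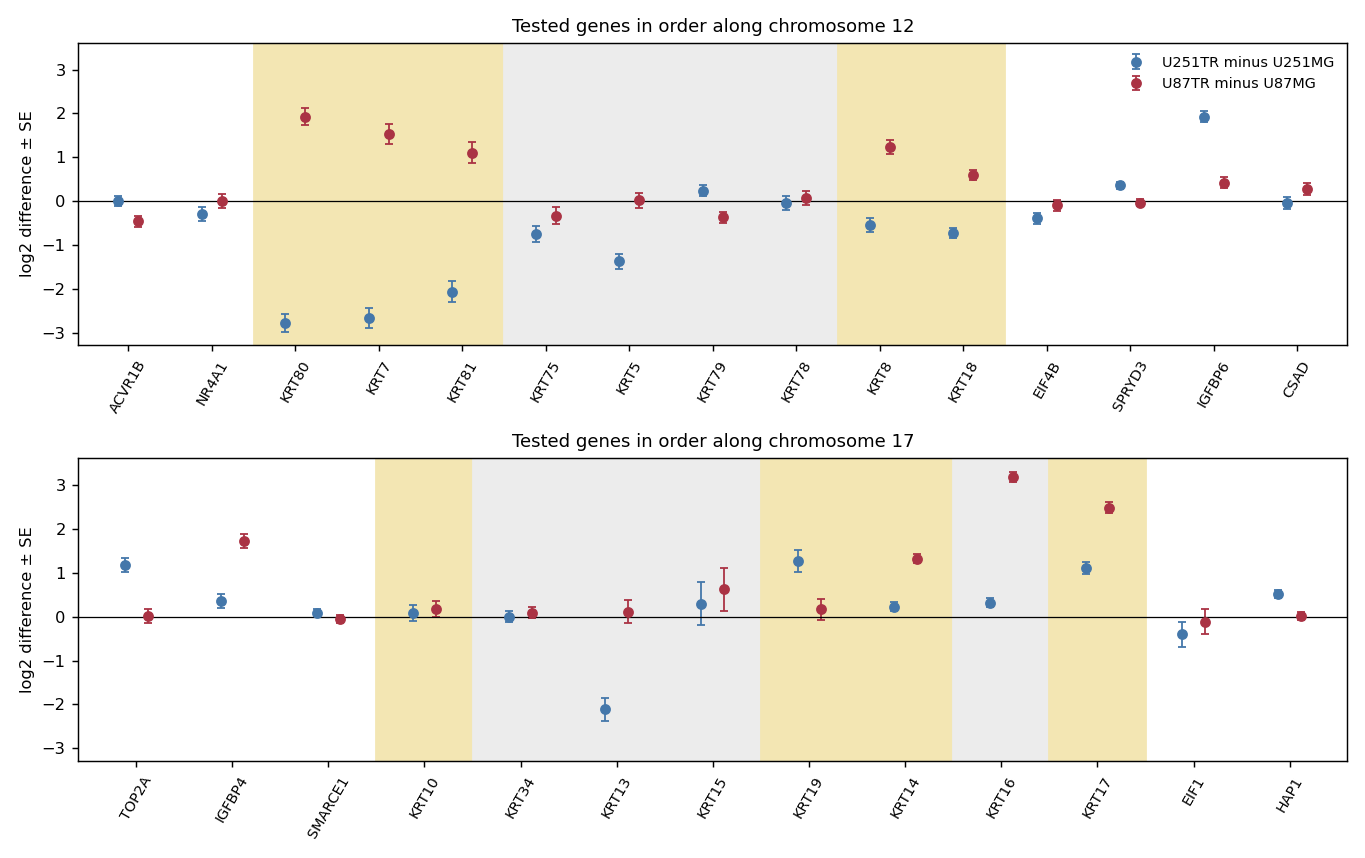
Log2 difference with SE, on the log2(FPKM + 1) scale, of each resistant subline against its parent, for the tested genes in their order along chromosomes 12 and 17 (spacing not to scale). Members stand on yellow, other keratins on grey and flanking genes on white; the 5 members on chromosome 12 lie below 0 in U251 and above 0 in U87, and KRT14, KRT16 and KRT17 stand together at the end of the chromosome 17 cluster.

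Among the 36 keratins that are not members 8 were tested. In U251TR 1 rose and 3 fell (median log2 difference -0.03 against 0.10 for all genes). In U87TR 1 rose and 1 fell (median 0.08 against -0.05). The fall was that of KRT79, which most other settings did not keep. The shares of all tested genes were 33.6% higher and 19.6% lower in U251TR, and 10.6% higher and 17.2% lower in U87TR. KRT16 reached 1 FPKM only in U87TR, and KRT13 and KRT5 only in U251MG, so these 3 entered the test only through the line where they were high; their differences are given without p-values and nothing is read from the counts. KRT16, a type I keratin of injured epidermis that lies between KRT14 and KRT17, had the largest difference in U87TR. It had 0.13, 0.12 and 0.16 FPKM in U87MG and 10.8, 8.88 and 8.69 FPKM in U87TR, a log2 difference of 3.19 (SE 0.11). In U251TR its log2 difference was 0.32 (SE 0.11), which did not pass with a pseudocount of 5 FPKM, with quantile normalization or without U251TR replicate 3. KRT6A, KRT6B and KRT6C, the type II partners of KRT16 and KRT17 in skin, and KRT5, that of KRT14, were all at 0.09 FPKM or less in every U87TR library. In U87TR the type II keratins at the highest levels were KRT80 and KRT8.

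KRT13, a type I keratin of the lining of mouth and oesophagus, was lower in U251TR. It had 2.7, 7.26 and 2.4 FPKM in U251MG and 0.02, 0.26 and 0 FPKM in U251TR, a log2 difference of -2.11 (SE 0.26). U251MG replicate 2 had the highest KRT13, KRT5, KRT15 and KRT19 and the lowest KRT80, KRT7, KRT81, KRT86, KRT8, KRT18 and KRT10 of its line. KRT15, a type I keratin of basal epithelial cells, had 2.46, 16.6 and 2.82 FPKM there and no call in U251TR (log2 difference 0.29, adjusted p = 0.653). Without U251MG replicate 2 it rose by 1.05 (adjusted p = 0.00246). KRT79 and KRT34 marked the U87 lines. KRT79 had 9.10 ± 1.70 FPKM in U87MG and 6.77 ± 0.472 in U87TR (SD, n = 3) and at most 0.22 FPKM in any U251 library. Its fall in U87TR (log2 difference -0.37, SE 0.12) was lost in 16 of 21 other settings. KRT34, a hair keratin, was listed at 0 in all 6 U251 libraries and had 2.5 ± 0.567 and 2.70 ± 0.239 FPKM in U87MG and U87TR (SD, n = 3).

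Over the 12 libraries the keratins fell into several patterns, given here as Pearson correlations of log2(FPKM + 1) without a test, since the points share 4 lines. KRT14, KRT16 and KRT17 ran together (r = 0.99 for KRT14 with KRT16, 0.95 for KRT14 with KRT17). KRT80 ran with KRT81 (0.90), KRT8 (0.88) and KRT7 (0.82), and KRT7 with KRT81 (0.95). The correlations of KRT80 with KRT5 (0.82) and KRT13 (0.81), which are not members, were about as high as that with KRT7. KRT14 and KRT80 did not run together (-0.02). KRT18 ran opposite to KRT79 (-0.99), the contrast between the U251 and U87 lines.

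Genes other than keratins with the most similar pattern were sought among 8414 genes with a mean of 10 FPKM or more in some line. For KRT80 they were FBXO25 (r = 0.988), CHMP1B (0.984), KLF5 (0.981), TUFT1 (0.980) and SGK223 (0.973). For KRT8 they were GJB2 (0.992), which codes for the gap junction protein connexin 26, MT-RNR2 (0.954), TMEM189 (0.952), SLC1A4 (0.941) and ZSWIM7 (0.938). GJB2 had 23.6 ± 7.74 FPKM in U251MG, 12.5 ± 1.59 in U251TR, 1.53 ± 1.19 in U87MG and 14.1 ± 0.129 in U87TR (SD, n = 3). For KRT18 they were FAM169A (0.998), HMGB2 (0.997), CNKSR3 (0.996), SOX2 (0.996) and DDX39B (0.996), all higher in the U251 lines than in the U87 lines. These are the highest of many correlations over 12 libraries from 4 lines and were not tested.

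KLF5, an epithelial transcription factor and 1 of the 5 genes closest to KRT80, was also on a list of 17 epithelial transcription and splicing regulators. It had 59.7, 43.1 and 59.6 FPKM in U251MG and 8.36, 8.27 and 8.1 FPKM in U251TR, a log2 difference of -2.56 (SE 0.12). In U87MG it had 4.84, 5.35 and 5.46 FPKM and in U87TR 12.3, 13.9 and 12.5 FPKM, a log2 difference of 1.16 (SE 0.12). Of the 9 regulators tested 3 rose and 2 fell in U251TR (median 0.34 against 0.10 for all genes), among them EHF with a rise of 2.94 (adjusted p = 1.03e-06). In U87TR 3 rose and none fell (median 0.00 against -0.05). The shares of all tested genes were 33.6% higher and 19.6% lower in U251TR, and 10.6% higher and 17.2% lower in U87TR. Beside KLF5 those that rose in U87TR were KLF4 (1.29, adjusted p = 0.0064) and ELF3 (1.18, adjusted p = 0.000611). KLF5 and KRT80 were both highest in U251MG and lowest in U87MG, while KRT7 and KRT81 were lowest in U251TR, overlapping with U87MG. KLF5 is named here for its correlation with KRT80, so its p-values are left out and this likeness is a description of 4 lines.

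Among genes that anchor keratin filaments, those of plakins and desmosomes passed about as often as all genes did, though few were tested. Of all tested genes 53.2% passed in U251TR (33.6% higher, 19.6% lower) and 27.8% in U87TR (10.6% higher, 17.2% lower). Of 20 plakin and desmosome genes 11 were tested, of which 4 rose and 1 fell in U251TR (median 0.01 against 0.10 for all genes) and 1 rose and 2 fell in U87TR (median 0.01 against -0.05). JUP, which codes for plakoglobin and links cadherins to filaments, rose from 7.93 ± 1.72 to 42.9 ± 3.11 FPKM in U251TR (SD, n = 3; log2 difference 2.31, adjusted p = 1.15e-07), where KRT80, KRT8 and KRT18 were lower. DSP, the plakin that binds keratin filaments at desmosomes, rose there by 0.46 (adjusted p = 0.00111) and was at 0.03 FPKM or less in every U87 library. Of the 7 hemidesmosome genes, which anchor keratin to the basement membrane, 3 rose and 1 fell in U251TR and 2 rose and 1 fell in U87TR. ITGA6, the α6 integrin, rose in both (1.15, adjusted p = 1.41e-06, and 1.90, adjusted p = 6.17e-08), as did LAMB3, a laminin 332 chain (1.66, adjusted p = 1.65e-06, and 0.79, adjusted p = 0.00154). COL17A1, a hemidesmosome collagen, fell in U251TR (-2.13, adjusted p = 8.85e-05).

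Among intermediate filament genes other than keratins VIM was far more abundant than all keratins together in every line. Of 16 such genes listed 11 were tested. In U251TR 4 were higher and 4 lower (median 0.19), where 33.6% and 19.6% of all tested genes were (median 0.10). In U87TR 3 were higher and 2 lower (median 0.20), where 10.6% and 17.2% of all tested genes were (median -0.05). VIM, which codes for vimentin, had 4917 ± 418 FPKM in U87MG and 4051 ± 224 in U87TR (SD, n = 3), against 70.8 and 157.2 FPKM for all keratins together. In U251MG it had 1298, 2474 and 1334 FPKM, with replicate 2 high, and it fell in U251TR to 817.1 ± 43.1 FPKM (SD, n = 3; -0.99, adjusted p = 0.000929). GFAP, the astroglial filament, rose in U251TR from 22.8 ± 6.19 to 396.2 ± 17.4 FPKM (SD, n = 3; log2 difference 4.09, adjusted p = 3.58e-08), while the summed keratin level there was lower. NES, which codes for the neural progenitor filament nestin, had the same directions as KRT80: it fell by 2.16 in U251TR (adjusted p = 2.43e-08) and rose by 1.60 in U87TR (adjusted p = 9.57e-07).

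Markers of epithelial cells were weak in all lines. Of 12 markers 3 were at 1 FPKM or more in every library of U251MG, U251TR and U87TR, and 0 in U87MG. Their summed level ran from 11.5 to 13.4 FPKM in U251MG, 16.3 to 16.9 in U251TR, 2.95 to 7.16 in U87MG and 11.1 to 15.7 in U87TR. CDH1, which codes for E-cadherin, was at 0.08 FPKM or less in every library and at 0 in all U87TR libraries, and EPCAM was at 0 in all U251 libraries. Of the 5 tested markers 2 rose and 1 fell in U251TR, where CLDN4 (0.74, adjusted p = 8.71e-05) and OCLN (0.70, adjusted p = 0.00198) rose while the chromosome 12 members were lower. In U87TR 3 rose and none fell (median 0.93 against -0.05 for all genes). They were MUC1 (1.42, adjusted p = 0.00552), CLDN7 (1.19, SE 0.16) and CLDN4 (0.93, adjusted p = 3.82e-05). CLDN7 was weak and highest in U87TR, the line through which it may have entered the test, so its p-value is left out. Among all tested genes 33.6% rose and 19.6% fell in U251TR, and 10.6% rose and 17.2% fell in U87TR. Nothing is read from the counts of listed genes. The summed marker level was higher in both sublines than in their parents, and the part of these markers in the keratin differences was not tested. Of 13 cornified envelope genes 5 were tested, with 2 higher and 1 lower in U251TR and 3 higher and 1 lower in U87TR. FLG, which codes for filaggrin, a protein that bundles keratin in the epidermis, fell in U251TR from 48.7 ± 1.90 to 2.86 ± 0.0529 FPKM (SD, n = 3; -3.69, adjusted p = 2.75e-10).

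Of the 8 tested AP-1 genes, a family of transcription factors that act on many keratin promoters, 1 rose and 2 fell in each subline. FOSL2 had the directions of the chromosome 12 members, with a fall in U251TR (-0.63, adjusted p = 6.28e-05) and a rise in U87TR (0.42, adjusted p = 0.00337). The other AP-1 genes that passed did not have them. JUNB rose in U251TR (1.08, adjusted p = 2.87e-06), and BATF3 fell in U87TR (-0.72, adjusted p = 0.0243). JUN fell in both sublines (-0.58, adjusted p = 0.000916, and -0.51, adjusted p = 0.0053). Of 5 tested mesenchymal transcription factors, which repress epithelial genes, 2 rose and 3 fell in U251TR and 1 rose and 2 fell in U87TR. ZEB2 fell in both (-2.50, adjusted p = 4.88e-08, and -0.59, adjusted p = 0.00928). PRRX1 rose in both (2.25, adjusted p = 4.53e-08, and 1.27, adjusted p = 1.64e-05). ZEB1 rose in U251TR (0.49, adjusted p = 0.011) and fell in U87TR (-0.54, adjusted p = 0.0122). SNAI2 and TWIST1 fell in U251TR only (-1.07, adjusted p = 5.77e-05, and -1.96, adjusted p = 2.14e-08). For comparison, 33.6% of all tested genes rose and 19.6% fell in U251TR, and 10.6% and 17.2% in U87TR.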

How the data were processed

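The authors deposited 1 gene expression table covering the 12 libraries, with FPKM values to 2 decimals made from reads with STAR 2.5.2b and RSEM 1.2.31, per the submitters' processing notes. No header states the unit, which was inferred from the values. Those notes give the build hg19 and the design text names a different one, so no genome coordinates are printed. Per the labels' protocols, libraries were made with TruSeq reagents from RNA of integrity 6.8 or above. Symbols that had turned into dates (27 rows) were left out.

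In limma 3.58.1 (R 4.3.3), values were taken as log2(FPKM + 1) and a mean per line was fitted over the 12 libraries, with trended and robust moderation of the variance. Entry needed 1 FPKM in 3 libraries, which 15449 genes met. Tests were two-sided and Benjamini-Hochberg adjusted over these genes, with a threshold of 0.05. The script was tested on simulated data. Members, gene lists and rules were chosen with earlier results of these data known. Named are all members, up to 4 genes per list and comparison with the largest change past the threshold, the 5 genes most correlated with KRT8, KRT80 or KRT18, and cluster neighbours; further names were picked with their values in view. Replicate numbers recur across lines, but deviations of same-numbered libraries correlated at only -0.058 to 0.116, so the numbers were not taken to pair libraries. Sequences were compared in GENCODE v44 MANE Select transcripts. Alternatives were other pseudocounts, filters and scalings, a replicate block, a fit on the compared lines alone, leaving out each library, and summing near-identical genes.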

Additional observations from a re-analysis of the deposited data

Results flagged for a closer look

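For 4 of the 8 tested keratins that are not members, the change from parent to resistant subline differed between U87 and U251. The limma test was of the difference itself, and 47.6% of all tested genes passed it. Of the 4, 3 were higher and 1 lower, where 15.4% and 32.1% of all tested genes were. Nothing is read from this count. Values are the change in U87TR minus that in U251TR, on the log2(FPKM + 1) scale. The difference was 2.87 for KRT16, which reached 1 FPKM only in U87TR, and 2.23 for KRT13 and 1.39 for KRT5, which did so only in U251MG. These 3 entered the test only through the line where they were high, so no p-value is given. KRT79 had -0.61 (SE 0.18), which did not pass with quantile normalization. It had at most 0.22 FPKM in any U251 library and entered the test only through the U87 lines, so its p-value is left out too. Its fall in U87TR was lost in 16 of 21 other settings.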

How the results depend on the processing

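Of 751 values of members under other settings 722 kept their direction and their side of the threshold. The sign turned in 20, all of them differences near 0, and the cause was not tested. KRT14 in U87MG against U251MG was 0.00 with a pseudocount of 5 FPKM, a replicate block, the compared lines alone, TPM scaling and median-of-ratios scaling, 0.01 with quantile normalization, -0.08 when summed with KRT16, and -0.01 to 0.01 with a library left out. KRT10 in U251TR was -0.03 with median-of-ratios scaling, -0.04 with quantile normalization and -0.11 to 0.20 with a library left out, and its difference between the lines ran from -0.04 to 0.28. Another 5 values lost the threshold: KRT19 for the difference (-1.25 with a pseudocount of 0.1 FPKM and -0.78 with quantile normalization), KRT18 in U87TR (0.19 with a pseudocount of 5 FPKM and 0.23 when summed with its copies) and KRT81 in U87TR (0.32 with a pseudocount of 5 FPKM). KRT14 in U251TR passed in 4 settings. The table used here holds no counts, so the precision of the low values of KRT14, KRT81 and KRT86 is unknown.

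With the replicate block 8119, 4094, 7202 and 11137 genes passed in U251TR, U87TR, the difference and the parents, against 8222, 4294, 7350 and 11170 without it. The block changed no call of a member. With a library left out the counts ran from 7262 to 8961, 3013 to 5617, 6537 to 8425 and 10529 to 11505. Without U251MG replicate 2 they were 8961, 5617, 8425 and 11505. Of the genes called in U251TR 63.2% were higher, against 72.1% with TPM, 51.3% with median-of-ratios and 49.3% with quantile scaling; in U87TR 38.1%, against 46.2%, 49.0% and 48.8%; for the difference 32.4%, against 27.9%, 47.5% and 48.6%. The median of all genes moved in U251TR from 0.10 to 0.20 with TPM and -0.01 with quantile scaling, and for the difference from -0.17 to 0.00 and 0.01 with median-of-ratios and quantile scaling, while the directions of all members but KRT10 and KRT14 held.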
